A study of Mus musculus with 6 samples.

Results

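The genes described here are 50 interferon-induced genes of the mouse, and they were examined in liver RNA of 3 MUTYH-null and 3 wild-type mice. They were listed by name, with earlier results of these data known, and each was read from the probe set that named this gene and no other. Where a gene had more than 1 such probe set, the one with the highest mean signal was taken. This gave a value for 46 of the 50 genes, out of 22180 genes measured in the same way. The list holds 15 guanylate binding proteins and immunity-related GTPases (Gbp and Irg genes, 13 measured), 26 genes of the type I interferon response (24 measured), 7 genes of class I antigen presentation (7 measured) and the interferon regulatory factors Irf1 and Irf8. For Gbp2, Tgtp1 and Oas1a, the probe sets also named a close relative (Gbp2b, Tgtp2 and Oas1g), so no value was taken for them, and Ifi44 was not analysed here.

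Type I interferons bind a receptor of nearly all cells and activate a complex that holds STAT2 and IRF9, binds the interferon-stimulated response element (ISRE) and turns on antiviral genes such as the Ifit, Oas and Mx genes. Interferon gamma, made by T and NK cells, acts at gamma-activated sites (GAS) and through IRF1, and it induces the Gbp and Irg GTPases, which coat the vacuoles of intracellular pathogens, together with the machinery that loads peptides on class I molecules. In the liver, hepatocytes, Kupffer cells and infiltrating lymphocytes can all respond to these cytokines.

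All 6 mice were male, of C57BL/6 background, and received the HFHC + high-iron diet for 9 months from 8 weeks of age. HFHC is a high-fat high-carbohydrate diet in the study's methods, and high-cholesterol elsewhere in its text. Mice 3003, 3007 and 3008 were Mutyh -/- and lacked the DNA glycosylase MUTYH, which removes adenine paired with oxidized guanine. The labels give them the diagnosis HCC, and the study's text says that non-tumorous liver was taken. Mice 1025, 1027 and 1001 were Mutyh +/+ and had no HCC. An effect of the genotype and one of the tumors cannot be told apart, since each null mouse had tumors and no wild-type mouse did. Each mouse gave 1 array, so the p-values measure the spread between 3 mice of a group. In whole liver, fewer cells of a type and less RNA per cell cannot be told apart.

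Signals are log2 values, and differences are given as MUTYH-null minus wild-type, which turns the sign used in the study's own supplementary list. Array medians lay between 4.51 and 4.55, and arrays correlated across probe sets at 0.983 to 0.985 (Pearson's r) within groups and 0.982 to 0.985 between them. The Mutyh probe set differed by 0.05 (95% interval -0.19 to 0.29), at a signal near the median of all probe sets (4.51), and so did not separate the genotypes. The hepatocyte markers, 10 of 10 measured, had a median difference of -0.0009, and none was called. A gene is called higher or lower here where limma gave an unadjusted p under 0.05. After Benjamini-Hochberg adjustment over 22180 genes no gene was called, the smallest adjusted p in limma being 0.963, while 507 genes were called higher and 622 lower at the unadjusted level. The array of mouse 3007 was unremarkable over all genes but high for most of the members, so that results are also given without this mouse.

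Many of the genes share short motifs in their promoters. RefSeq windows from 250 bases before to 50 bases after the start of transcription (GRCm38.p6) were at hand for 34 of the 50 members. The ISRE, searched on both strands as GAAA, any 2 bases and GAAA again, was found in 20 of the 34 (58.8%), against 3.98% of the 26994 genes with such a window. The GAS, searched as TTCNNNGAA, which reads the same on both strands, was found in 12 of the 34 (35.3%), against 9.55% of all genes, and both motifs in 7 (20.6%), against 0.611%. The matched letters of the 2 motifs overlapped in 1 member, Bst2. A match only describes the letters of the window.

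Of the 15 Gbp and Irg genes, 8 had a window: Gbp2, Gbp3, Gbp5, Gbp7, Igtp, Irgm1, Irgm2 and Tgtp1. All 8 had an ISRE match, and 5 of the 8 also had a GAS match. Gbp4, Gbp6, Gbp8, Gbp9, Gbp10, Gbp11 and Iigp1 had no window and were not searched. Gbp2 and Tgtp1 were searched but have no signal value here. The stretches that follow are printed because they show these layouts, 5′ to 3′ on the strand of the gene, with matches in capitals. Gbp3 (chr3:142559984-142560029, plus strand) had a pair of overlapping ISRE matches. Gbp7 (chr3:142530215-142530307, plus strand) had 2 GAS matches before its ISRE. Igtp (chr11:58199496-58199546, plus strand) and its neighbor Irgm2 (chr11:58214887-58214937, plus strand) had a GAS followed closely by an ISRE, and their stretches of 51 bases differed at 2 bases.
Gbp3: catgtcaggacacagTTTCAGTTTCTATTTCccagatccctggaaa
Gbp7: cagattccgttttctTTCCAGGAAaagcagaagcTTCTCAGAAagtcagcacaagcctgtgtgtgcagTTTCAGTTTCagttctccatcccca
Igtp: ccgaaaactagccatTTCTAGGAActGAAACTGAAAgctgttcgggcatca
Irgm2: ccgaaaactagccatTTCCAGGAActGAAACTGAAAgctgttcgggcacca

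Of 19 type I response genes with a window, 11 had an ISRE match and 4 a GAS match. Isg15 (chr4:156200860-156200911, minus strand) had 3 overlapping ISRE matches, and Ifit1 (chr19:34640770-34640828, plus strand) had 2 that stood apart. In the class I group, 1 of 5 had an ISRE match, that of B2m (chr2:122147533-122147572, plus strand), and 1 had a GAS match, Psmb8. Irf1 (chr11:53769909-53769947, plus strand) and Irf8 both had a GAS match and no ISRE match.
Isg15: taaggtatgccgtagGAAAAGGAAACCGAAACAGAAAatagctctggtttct
Ifit1: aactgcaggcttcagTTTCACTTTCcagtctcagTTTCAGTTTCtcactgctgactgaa
B2m: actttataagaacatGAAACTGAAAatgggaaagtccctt
Irf1: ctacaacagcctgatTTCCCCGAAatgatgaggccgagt

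The comparison asked whether interferon-induced genes differ between non-tumorous liver of MUTYH-null mice with tumors and liver of wild-type mice without. Gbp11 was called higher and Gbp6 lower in MUTYH-null liver, and the other 44 measured members were called in neither direction. This is 1 of 46 in each direction, beside 2.29% of all genes called higher and 2.8% called lower, so the members were called about as often as other genes. By adjusted p, 0 of 46 members passed, as did 0.0% of all genes. The 2 groups overlapped in every one of the 46 members, while they did not overlap in 9.53% of all genes. The differences were positive in 34 members and negative in 12, with a median of 0.06 log2 beside -0.01 for all genes. In 43 of the 46, the 95% interval lay within 1 log2 on either side of 0, the exceptions being Gbp4, Gbp8 and Gbp11, and in 30 it lay within 0.5.

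**Figure D1:**
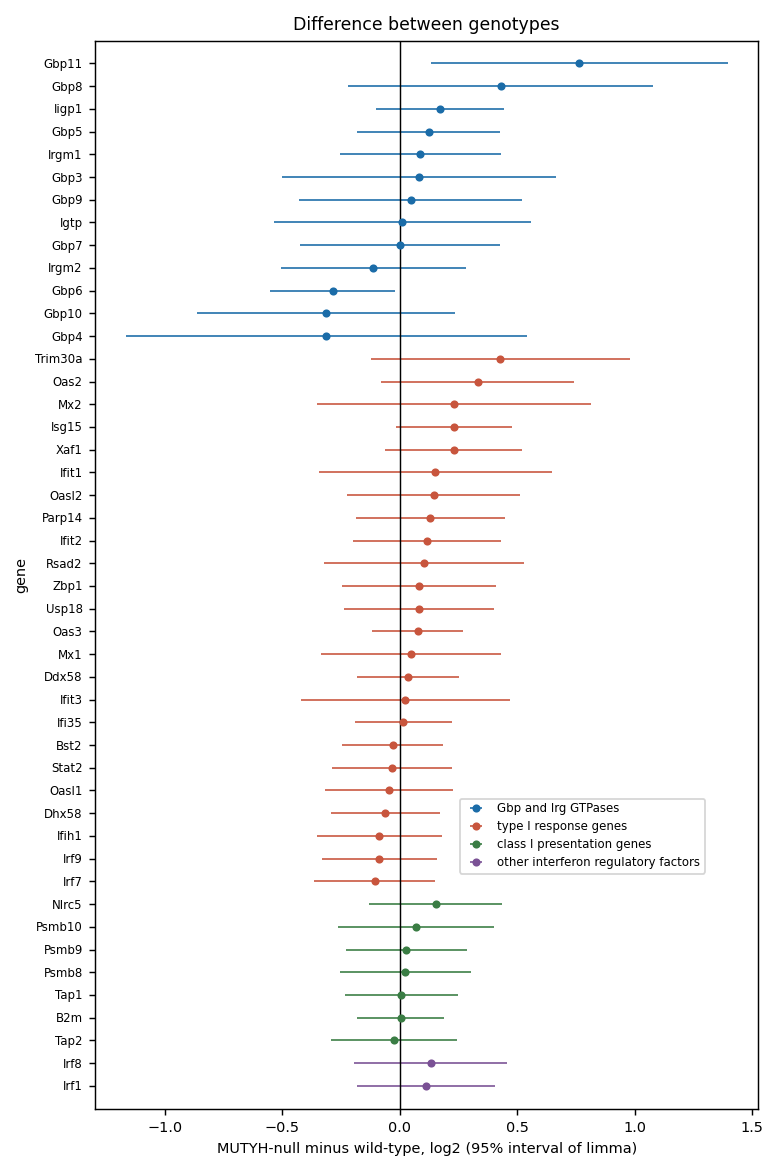
Difference between genotypes for the 46 measured members (x axis, MUTYH-null minus wild-type, log2; y axis, gene), with points for the difference of 3 against 3 mice, bars for limma's 95% interval and colors for the 4 groups of members. Only the bars of Gbp11 (0.76) and Gbp6 (-0.29) leave out 0, and the widest bar is that of Gbp4.

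The guanylate binding proteins are large GTPases that assemble on pathogen membranes. Mouse Gbp genes lie in clusters on different chromosomes, one with Gbp5, Gbp7, Gbp3 and Gbp2 and another with Gbp8, Gbp9, Gbp4, Gbp10, Gbp6 and Gbp11. The genes of a cluster are close in sequence, so signal may be shared between them even where the probe set names 1 gene.

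Gbp11 had signals of 5.96, 6.35 and 6.34 in MUTYH-null mice 3003, 3007 and 3008 and of 5.48, 6.04 and 4.83 in wild-type mice 1025, 1027 and 1001. The wild-type mice were spread more widely than the MUTYH-null mice, with 1001 lowest, and 1027 lay above 3003. The difference was 0.76 log2 (SE 0.27, 95% interval 0.13 to 1.40), a 1.70-fold higher mean, with an unadjusted p of 0.0238 in limma. The study's own supplementary list, from the same arrays, already held Gbp11 as higher in MUTYH-null liver, so this call is not a separate finding. An exact permutation test gave p = 0.2, two-sided, where 0.1 is the smallest value that 3 against 3 can give. The call was lost without mouse 3007 (0.70), 3008 (0.70) or 1001 (0.45), and the difference was 1.06 without 1027.

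Gbp6 had signals of 2.49, 2.16 and 2.22 in the MUTYH-null group and of 2.46, 2.62 and 2.65 in the wild-type group. All 6 values were far below the median of all probe sets, and mouse 3003 lay above 1025. The difference was -0.29 log2 (SE 0.12, 95% interval -0.55 to -0.02), and the exact permutation test gave p = 0.2. The call was lost without 3007 (-0.22), 3008 (-0.25), 1027 (-0.26) or 1001 (-0.25), and under 3 other settings.

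Gbp8 had 4.80, 5.59 and 5.11 in the MUTYH-null group and 5.13, 4.94 and 4.13 in the wild-type group. Mouse 3007 was highest and 1001 lowest, and the other 4 lay close together. The difference was 0.43 log2 (95% interval -0.22 to 1.08), and 0.13 without mouse 1001.

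Gbp10 had 7.28, 8.16 and 8.07 in the MUTYH-null group and 7.94, 8.44 and 8.07 in the wild-type group, a difference of -0.31 log2 (95% interval -0.86 to 0.24). Here mouse 3003 stood below the other 5, and without it the difference was -0.03. Gbp4 had 3.05, 4.32 and 4.28 against 4.12, 3.72 and 4.75, also a difference of -0.31 (95% interval -1.17 to 0.54), and 3003 was again the lowest mouse.

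In the cluster of Gbp3, the differences were 0.08 for Gbp3, 0.00 for Gbp7 and 0.12 for Gbp5. Gbp3 had 4.64, 5.29 and 4.61 in the MUTYH-null group and 4.26, 5.10 and 4.94 in the wild-type group. Gbp7 had 6.77, 7.42 and 7.29 against 7.06, 7.41 and 7.01. In both genes 3007 was the highest of the MUTYH-null mice and 1027 the highest of the wild-type mice, and the group means lay close together. Gbp9, of the other cluster, had its highest values in the same mice, 6.41 in 3007 and 6.40 in 1027, and a difference of 0.05.

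The immunity-related GTPases act on vacuoles in a similar way, Iigp1 as an effector and Irgm1, Irgm2 and Igtp as regulators. Iigp1 had 9.70, 10.06 and 9.84 in the MUTYH-null group and 9.55, 9.77 and 9.76 in the wild-type group, a difference of 0.17 log2 (95% interval -0.10 to 0.45). Only mouse 3003 kept its groups from lying apart. Irgm1 had 5.80, 6.26 and 5.68 against 5.86, 5.81 and 5.82, a difference of 0.09 in which 3007 alone stood out.

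Igtp, with the promoter stretch shown above, had 6.63, 7.18 and 6.76 in the MUTYH-null group and 6.36, 7.28 and 6.90 in the wild-type group, a difference of 0.01 log2 (95% interval -0.54 to 0.56). Irgm2, whose stretch is nearly the same, had 6.78, 7.24 and 6.94 against 7.02, 7.42 and 6.86, a difference of -0.11 (95% interval -0.51 to 0.28). In both genes 1027 was the highest of the 6 mice and 3007 the second. Over the 13 measured Gbp and Irg genes the differences ran from -0.31 to 0.76, with 9 positive, a median of 0.05 and a median within-group SD of 0.33, beside 0.14 for all genes.

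**Figure D2:**
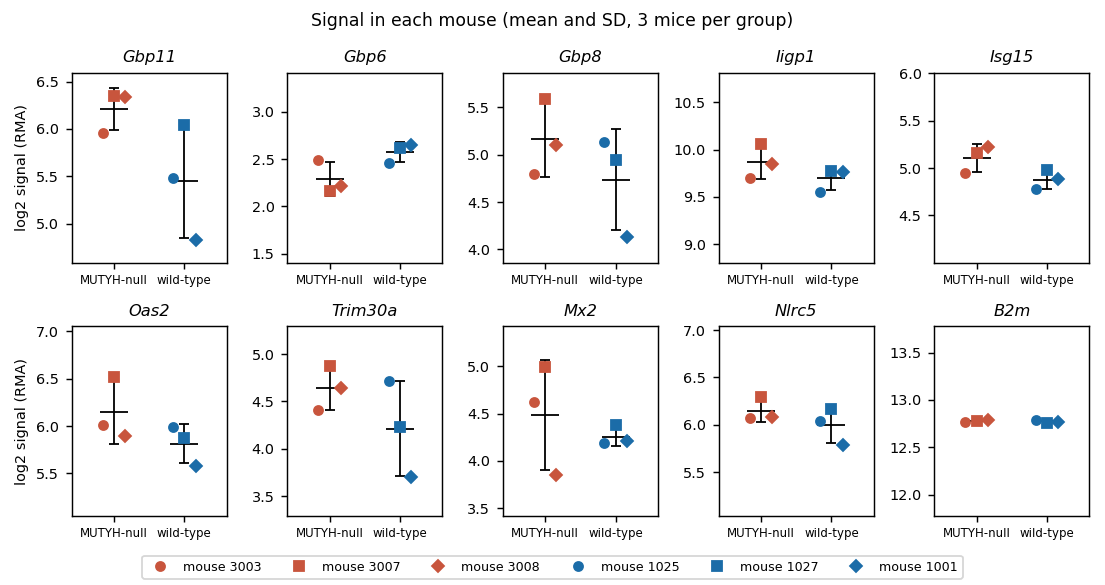
Log2 signal (y axis, each panel spanning 2 log2 units) of 10 members in each MUTYH-null mouse (red) and wild-type mouse (blue), with the marker shape for the mouse and black lines for the mean and SD of 3 mice. The groups overlap in all 10 panels, mouse 3007 is at the top of most, and B2m is level across the 6 mice.

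Among the 24 measured type I response genes, none was called, 17 differences were positive and 7 negative, and the median was 0.08 log2. All 24 intervals lay within 1 log2 of 0, and the median within-group SD was 0.18. The largest difference was that of Trim30a, a TRIM protein that restrains NF-kappaB signaling. It had 4.41, 4.88 and 4.64 in the MUTYH-null group and 4.71, 4.23 and 3.71 in the wild-type group, a difference of 0.43 log2 (95% interval -0.12 to 0.98). Mouse 1025 lay above 3003 and 3008, and 1001 was the lowest, without which the difference was 0.17.

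The Oas genes encode sensors of double-stranded RNA that make oligoadenylate and so activate RNase L. Oas2 had 6.01, 6.52 and 5.90 in the MUTYH-null group and 5.99, 5.87 and 5.58 in the wild-type group, a difference of 0.33 log2 (SE 0.18, 95% interval -0.08 to 0.74). Mouse 3007 stood above the other 5, and without it the difference was 0.14. Oas3 lay between 4.98 and 5.15 in all mice and differed by 0.08. The related Oasl1, which in mice restrains translation of Irf7, differed by -0.05 and Oasl2 by 0.14.

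Isg15, a ubiquitin-like protein that is joined to other proteins, had 4.94, 5.16 and 5.23 in the MUTYH-null group and 4.78, 4.98 and 4.88 in the wild-type group. Only mouse 3003, just below 1027, kept the groups from lying apart. The difference was 0.23 log2 (SE 0.11, 95% interval -0.02 to 0.48), with an unadjusted p of 0.0651 in limma, and between 0.17 and 0.31 under each of the alternatives. Usp18, which removes Isg15 from proteins and dampens the type I receptor, had 7.05, 7.19 and 6.73 against 6.99, 7.01 and 6.74, a difference of 0.08.

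Mx1 and Mx2 are dynamin-like GTPases that block viruses, and both were below the median of all probe sets in both groups. Mx2 had 4.62, 4.99 and 3.85 in the MUTYH-null group and 4.19, 4.38 and 4.21 in the wild-type group, a difference of 0.23 log2 (95% interval -0.35 to 0.81). The MUTYH-null mice held both the highest values and the lowest, so that the difference was -0.02 without 3007 and 0.55 without 3008. Mx1 differed by 0.05.

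The Ifit proteins bind foreign RNA and halt its translation. Ifit1 had 6.38, 6.87 and 6.05 in the MUTYH-null group and 6.47, 6.40 and 5.99 in the wild-type group, a difference of 0.15 log2 (95% interval -0.34 to 0.65). Ifit3 had 5.44, 6.01 and 5.36 against 5.52, 5.85 and 5.38, a difference of 0.02. For both genes 3007 was the highest mouse, and the other MUTYH-null mice lay within or near the wild-type values. Rsad2, the antiviral enzyme viperin, had 6.04, 6.23 and 5.52 against 5.63, 5.99 and 5.86, with 3007 highest, 3008 lowest and a difference of 0.10.

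Of the transcription factors of the type I response, 3 members had negative differences, none of them called. Stat2 and Irf9, which bind the ISRE together, differed by -0.04 (95% interval -0.29 to 0.22) and -0.09 (95% interval -0.33 to 0.16), and Irf7, which amplifies interferon production, by -0.11 (95% interval -0.37 to 0.15). Irf7 had 6.91, 7.15 and 6.82 in the MUTYH-null group and 7.17, 7.06 and 6.98 in the wild-type group. Even here 3007 was the highest of the MUTYH-null mice, at the level of the wild-type mouse 1025. Of the RNA sensors, Ddx58 (RIG-I) differed by 0.03, Ifih1 (MDA5) by -0.09 and Dhx58 (LGP2) by -0.06.

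No other member of this group was called. Xaf1, a proapoptotic protein, had 6.57, 6.80 and 6.45 in the MUTYH-null group and 6.20, 6.51 and 6.43 in the wild-type group, a difference of 0.23 log2 (95% interval -0.06 to 0.52) in which 3008 lay below 1027. The differences of Parp14, an ADP-ribosyltransferase, and Zbp1, a sensor of Z-form nucleic acids, were 0.13 and 0.08. Ifi35 differed by 0.01, or -0.08 on a further probe set, and Bst2 (tetherin, which holds budding virus on the cell) by -0.03, and Ifit2 by 0.11.

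The class I presentation genes had the narrowest spread of the 3 larger groups, with a median within-group SD of 0.15 log2. None of the 7 was called, all intervals lay within 0.5 log2 of 0, and the median difference was 0.02. B2m, the light chain of every class I molecule, was between 12.76 and 12.79 in all 6 mice, a difference of 0.00 (95% interval -0.18 to 0.19). Nlrc5, the transactivator of class I genes, had 6.07, 6.29 and 6.08 in the MUTYH-null group and 6.03, 6.17 and 5.79 in the wild-type group, a difference of 0.15 (95% interval -0.13 to 0.44). Mouse 1001 lay below the other 5, and 1027 above 3003 and 3008.

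Psmb8, Psmb9 and Psmb10 are the inducible subunits of the immunoproteasome, and they differed by 0.02, 0.03 and 0.07. Psmb10 had 7.26, 7.50 and 7.15 in the MUTYH-null group and 7.18, 7.48 and 7.03 in the wild-type group. Psmb9 had 6.30, 6.55 and 6.47 against 6.54, 6.44 and 6.26. In Psmb10, as in several Gbp genes, 3007 and 1027 were the high mice of their groups, while in Psmb9 the high wild-type mouse was 1025. The peptide transporter subunits Tap1 and Tap2 differed by 0.01 and -0.02.

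Irf1, the factor through which interferon gamma acts on many of its targets, had 6.10, 6.14 and 6.26 in the MUTYH-null group and 6.04, 6.30 and 5.84 in the wild-type group, a difference of 0.11 log2 (95% interval -0.18 to 0.41). Irf8, which myeloid cells and B cells need for their development, had 5.08, 5.52 and 5.49 against 5.40, 5.16 and 5.13, a difference of 0.13 (95% interval -0.19 to 0.46). A further probe set of Irf8 differed by 0.17. Neither gene separated the groups.

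The same mice were high or low in many of the members. Mouse 3007 had the highest value of the 6 mice in 27 of 46 members (58.7%), while it was highest in 15.8% of all genes. Within the MUTYH-null group it was the highest of 3 in 40 of 46 members (87.0%), beside 32.3% of all genes, and this held for 11 of 13 Gbp and Irg genes, 22 of 24 type I genes and 6 of 7 class I genes. At the other end, the wild-type mouse 1001 had the lowest value of the 6 in 16 of 46 members (34.8%), beside 18.1% of all genes. Members of one mouse share its array and its liver, so these counts describe the mice and carry no test.

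**Figure D3:**
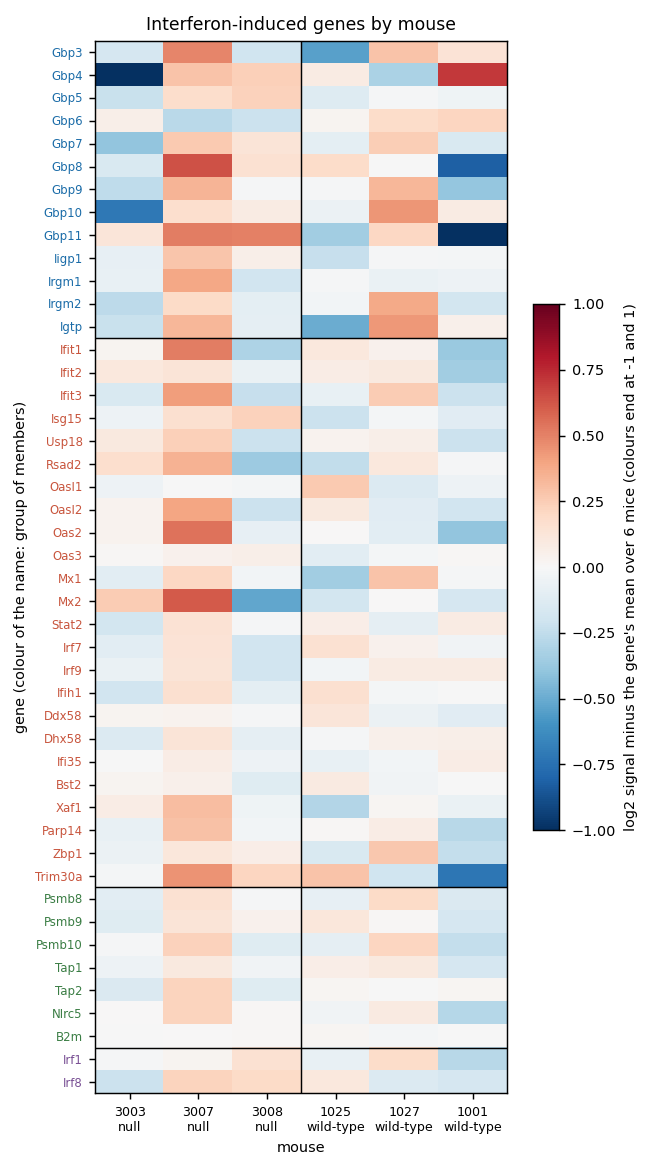
Log2 signal of each measured member (rows, with the names colored by group) in each mouse (columns) as the deviation from the mean of the gene over 6 mice. Mouse 3007 holds the highest of the 3 MUTYH-null values in 40 of 46 rows, and mouse 1001 the lowest of all 6 in 16.

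The median deviation of the 46 members from their gene means was 0.21 log2 in mouse 3007, and between -0.11 (1001) and 0.04 (1027) in the other 5 mice. Among the Gbp and Irg genes, 3007 (0.28) and 1027 (0.21) were both high and 3003 (-0.22) was low, 3003 being the lowest of the MUTYH-null mice in 10 of 13. Among the type I genes, 3007 was high (0.16), the wild-type mice 1025 and 1027 were each at 0.01, and 3008 (-0.07) and 1001 (-0.09) were low. Thus 1027 was the highest wild-type mouse for 9 of 13 Gbp and Irg genes but for 10 of 24 type I genes.

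Without mouse 3007, 17 of 46 members had a positive difference in place of 34, and the median over members was -0.03 log2. By group the medians without it were -0.13 for the Gbp and Irg genes, -0.02 for the type I genes and -0.03 for the class I genes. Without mouse 1001, 23 of 46 differences were positive and the median was -0.0018. Without 3003, 37 were positive, and the median was 0.11. Over the 13 settings tried, which include leaving out each mouse, 19 of the 46 members kept the sign of their difference wherever they were tested. Of these, 13 were positive and 6 negative. The setting without dim genes tested 40 members, and Gbp5 and Gbp6 were not among them. Gbp5, Gbp8, Gbp11, Iigp1, Isg15, Oas2, Oas3 and Trim30a were among the 13, and Gbp6, Gbp10, Irf7, Irf9, Ifih1 and Dhx58 were the 6.

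**Figure D4:**
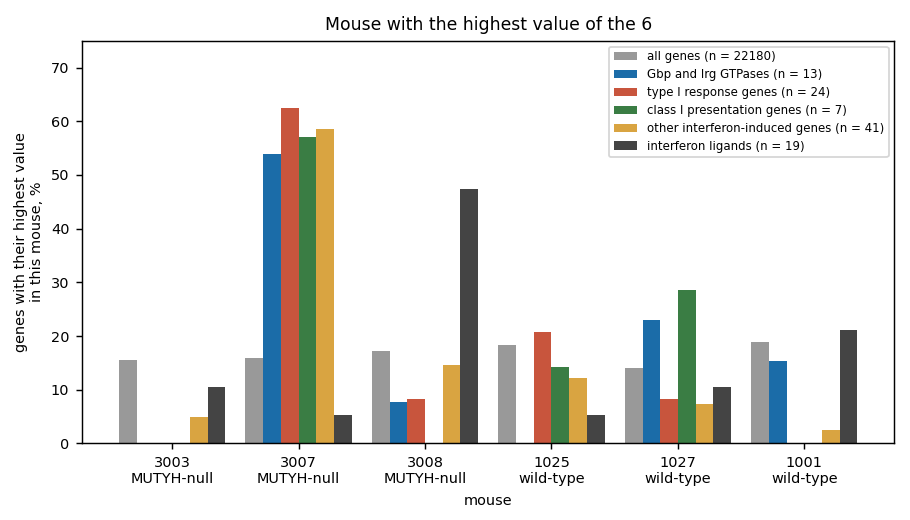
Percentage of genes (y axis) whose highest value of the 6 was in the mouse shown (x axis), for all genes (gray), the 3 larger groups of members, other interferon-induced genes and interferon ligands. Bars for mouse 3007 reach 53.8% to 62.5% in the groups of members and 58.5% in the other interferon-induced genes, beside 15.8% for all genes and 5.26% for the ligands.

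A further list of interferon-induced genes, of which 41 of 47 were measured, was read in the same way. Mouse 3007 was the highest of 6 in 24 of the 41 (58.5%) and the highest of the MUTYH-null mice in 30. In this list 1 gene was called higher and none lower, beside 2.29% and 2.8% of all genes, and the median difference was 0.07 log2. The called gene was Slfn1, a schlafen gene of T cell growth control, with 5.24, 5.45 and 5.22 in the MUTYH-null group and 5.01, 4.98 and 4.80 in the wild-type group. Its groups did not overlap, which held for 2 of the 41 genes, beside 9.53% of all genes. The difference of Slfn1 was 0.37 log2 (SE 0.11, 95% interval 0.13 to 0.62). Oas1g, a near copy of Oas1a, had 4.97, 5.89 and 4.64 against 5.06, 4.71 and 4.65, so that its difference of 0.36 came with a single high mouse, 3007. Cxcl9, a chemokine that interferon gamma induces, had 7.38, 8.44 and 8.06 against 7.68, 8.63 and 7.44, a difference of 0.04, again with 3007 and 1027 as the high mice. Oas1g and Cxcl9 were picked once their values were known.

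The interferon genes themselves gave little signal. Of 19 measured ligands, 7 were above the median of all probe sets in the higher group, and 1 was called higher and 2 lower, beside 2.29% and 2.8% of all genes. The groups did not overlap in 3 of the 19, beside 9.53% of all genes. Ifng, the gene of interferon gamma, had 3.31, 3.68 and 3.69 in the MUTYH-null group and 3.48, 3.37 and 3.52 in the wild-type group, a difference of 0.10 log2 (95% interval -0.18 to 0.39). Ifnb1, the gene of interferon beta, differed by -0.09 (95% interval -0.33 to 0.14). The called ligands were all dim: Ifna13 differed by -0.56, Ifnab by -0.48 and Ifna16 by 0.29, and their signals in all mice lay between 1.32 and 4.10. Mouse 3007 was highest in 1 of the 19 ligands.

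Of 10 measured receptors, kinases and STATs, none was called, while 9 differences were positive and the median was 0.09 log2. The type I receptor chains Ifnar1 and Ifnar2 differed by -0.03 (95% interval -0.27 to 0.20) and 0.14 (95% interval -0.07 to 0.35). Jak1, a kinase of both receptors, differed by 0.12 (95% interval -0.11 to 0.35). Its groups did not overlap, although mice 3003 and 1027 both had 8.56 after rounding. This held for 1 of the 10 genes, about the share of all genes (9.53%). Ifngr1, of the interferon gamma receptor, differed by 0.14 (95% interval -0.17 to 0.45). Among 7 inhibitors, 1 was called higher and none lower, beside 2.29% and 2.8% of all genes. The called gene was Socs3, which blocks cytokine receptors that signal through STAT3, with 5.70, 5.67 and 5.85 in the MUTYH-null group and 5.37, 5.56 and 5.16 in the wild-type group. Its difference was 0.38 log2 (SE 0.12, 95% interval 0.10 to 0.66), and it stayed called with each mouse left out. Groups did not overlap in 2 of the 7, Socs3 and Ptpn2 (0.14), beside 9.53% of all genes. Socs1, the main brake on interferon signaling, had 4.74, 4.49 and 4.98 against 4.86, 4.72 and 4.92, a difference of -0.10 (95% interval -0.41 to 0.21).

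Of 11 measured nucleic acid sensing genes, Ikbke, a kinase that activates IRF3, was called higher and Cgas, the sensor of cytosolic DNA, lower. This is 1 of 11 in each direction, beside 2.29% of all genes called higher and 2.8% called lower. Ikbke had 6.20, 6.02 and 6.19 in the MUTYH-null group and 5.97, 5.88 and 5.90 in the wild-type group, a difference of 0.22 log2 (SE 0.09). Cgas had 3.06, 2.82 and 2.54 against 3.25, 3.10 and 3.10, a difference of -0.34 (SE 0.14), at signals well below the median of all probe sets. Its call was lost after quantile normalization, with a robust trend and with all probe sets tested, and it was not tested with dim genes left out. The call of Ikbke was lost with all probe sets tested. Groups did not overlap in 2 of the 11, Ikbke and Cgas, beside 9.53% of all genes. Class I heavy chains and loading factors, 15 of 21 measured, held no called gene and had a median difference of 0.02. All 15 of their intervals lay within 0.5 log2 of 0.

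**Figure D5:**
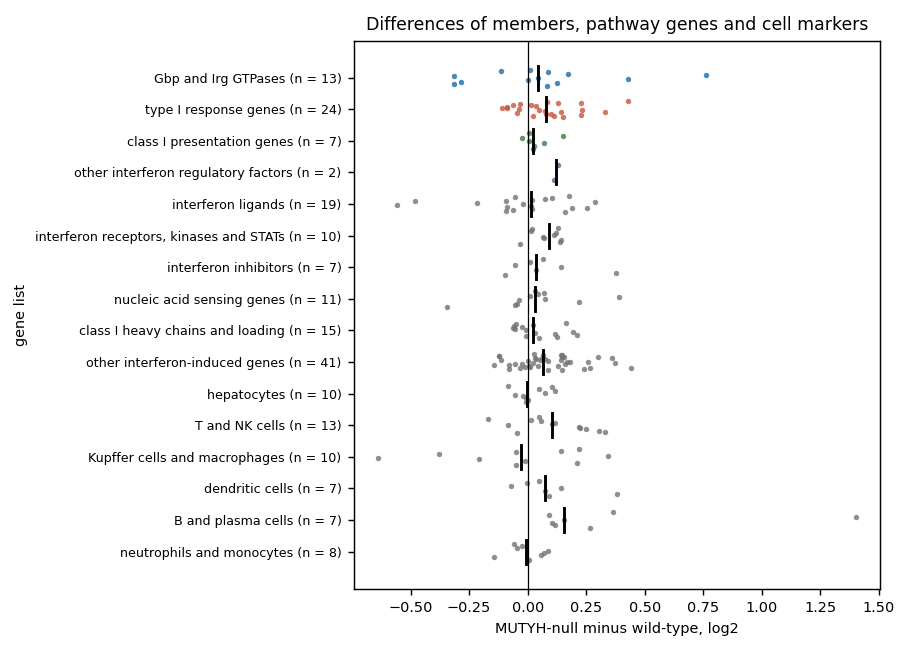
Difference of each gene (points; x axis, MUTYH-null minus wild-type, log2) in the groups of members, the other interferon pathway lists and the cell type marker lists (y axis), with a black bar for the median of each list. List medians lie between -0.03 and 0.16, and the point at 1.40 is the plasma cell gene Jchain.

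Markers of the cells that make or answer interferon were set beside these values. T and NK cell markers, 13 of 14 measured and 6 above the median of all probe sets, had no called gene and a median difference of 0.10 log2. Their summed level ranged from 7.99 to 8.25 in the MUTYH-null mice and from 7.92 to 8.13 in the wild-type mice, on a log2 scale. Kupffer cell and macrophage markers, 10 of 10 measured, had 2 called lower, Timd4 (-0.64) and Marco (-0.38), beside 2.8% of all genes. Their median difference was -0.03, with 6 negative and 4 positive, among them Vsig4 (0.34). Groups did not overlap in 3 of the 10, 2 lower and 1 higher (Mertk, 0.14), beside 9.53% of all genes. The summed levels of these markers were 10.6 to 11.0 against 10.4 to 11.2. Dendritic cell markers, 7 of 8 measured, had 1 called higher, Itgax (0.38), beside 2.29% of all genes, and summed levels of 8.74 to 8.92 against 8.52 to 8.93. B and plasma cell markers, 7 of 8 measured, had 1 called higher, Prdm1 (0.36), beside 2.29% of all genes. Groups did not overlap in 1 of the 7, Prdm1, beside 9.53% of all genes. Summed levels were 7.52 (3003), 7.63 (3007) and 8.67 (3008) against 7.34 to 7.54. Mouse 3008 was the highest of 6 in 6 of these 7 markers, and its Jchain was 7.47, against 4.69 in 3003 and 5.32 in 3007. Neutrophil and monocyte markers had no called gene.

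Across the mice these markers did not all follow the interferon-induced genes. Mouse 3007 had median deviations of 0.18 log2 for the Kupffer cell and macrophage markers, 0.06 for the T and NK cell markers, -0.13 for the B and plasma cell markers and 0.01 for the hepatocyte markers. The highest mouse for the macrophage markers was 1025 (0.34), and that for the B and plasma cell markers was 3008 (0.47). For the T and NK cell markers 3008 (0.12) was highest and 1025 (-0.26) lowest, with 1027 at 0.06, 1001 at 0.01 and 3003 at -0.09. Mouse 1001 was lowest for the macrophage (-0.35), dendritic cell (-0.18) and B and plasma cell (-0.28) markers and also for the members as a whole (-0.11). The part of these cells in the levels of the interferon-induced genes was not tested.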

How the data were processed

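Total RNA of liver was hybridized to Affymetrix whole-transcript arrays, for which the methods give a human design although the probe table lists mouse genes. The deposited values are log2 signals that the authors had summarized and normalized with RMA. Affymetrix Expression Console and, beside it, Transcriptome Analysis Console stand in the submitters' processing notes, without versions. The genome build is not stated for the array. Of 41345 probe sets, 23521 had exactly 1 gene entry, 1820 had several and 16004 had none.

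MUTYH-null and wild-type mice were compared by limma 3.58.1 (lmFit, eBayes, R 4.3.3) without covariates, with Benjamini-Hochberg adjustment over 22180 genes, and single genes by exact permutation, two-sided. The fit was tested on simulated data. Members and lists were chosen with earlier results of these data known. Members to be named were those called and the 3 with the largest absolute difference in each group, and further ones were added once their values were known. For other pathway genes, the called genes and Ifng, Ifnb1, Ifnar1, Ifngr1 and Socs1 were named, and others were added as above. Alternatives were the mean of the probe sets of a gene, renewed quantile normalization, centering, leaving out dim genes, a robust trend, array weights, testing all probe sets and leaving out each mouse. The number of arrays limits the precision. Figures were drawn with matplotlib 3.10.9, and motifs were searched in RefSeq promoter windows of GRCm38.p6.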

Additional observations from a re-analysis of the deposited data

How the results depend on the processing

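No gene passed an adjusted p of 0.05 in limma under any setting, the smallest adjusted p being 0.661 with all probe sets tested. Gbp11 remained called higher under the 7 settings that keep all mice. With dim genes left out, 2 members were called higher, Isg15 being the second, and 0 lower, since Gbp6 was not tested there. The call of Gbp6 was lost as well after quantile normalization, with a robust trend and with all probe sets tested, each leaving 0 called lower. Groups lay apart in 3 members after quantile normalization and in 1 after centering. With each mouse left out in turn, 0 to 3 members were called higher and 0 to 1 lower. None was called higher without 3007 or 1001, and 3 were without 3003 (Gbp11, Gbp5 and Isg15). Without 3008 the 2 called were Mx2 and Oas2, and without 1025 they were Gbp11 and Trim30a. The share of all genes called is not given here for any alternative, so the counts of called members show no excess. Groups of 2 and 3 mice lay apart in 1 to 7 members, and groups this small lie apart more readily than groups of 3 and 3. The share of all genes that lay apart is not given here for any alternative, so these counts show no excess. The median difference of the type I genes ran from -0.021 without 3007 to 0.14 without 1027, and was -0.00083 without 1001. That of the Gbp and Irg genes ran from -0.13 to 0.18 and that of the class I genes from -0.03 to 0.08. The sign changed in 0 to 2 members under the settings that keep all mice and in 2 to 17 with a mouse left out, 17 being without 3007. The causes were not tested. No paired analysis was possible because the animal numbers pair no mice. Signals below the median of all probe sets, those of 6 members, limit what could be seen in Gbp4, Gbp5, Gbp6, Ifit2, Mx1 and Mx2.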
